A study of Mus musculus with 9 samples.

Results

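Integrins are the receptors by which cells hold on to the extracellular matrix, and the 10 genes described here are 6 integrin subunits (Itga3, Itga6, Itgav, Itgb1, Itgb3 and Itgb5), the ligand nephronectin (Npnt) and 3 genes of the Fraser complex (Fras1, Frem1 and Frem2). They were taken as every probe set whose only gene symbol in the platform annotation is one of these names. That gave 31 of the 45101 probe sets on the array and 10 of its 18194 gene symbols. The samples were renal vesicles, the first epithelial stage of the nephron, captured with a laser from mouse kidneys at E12.5. There were 5 arrays of wild type vesicles and 4 of Lim1 mutant vesicles, described as biologically independent and each made from about 30 to 50 vesicles. Lim1 (current symbol Lhx1) is a homeodomain transcription factor of the LIM class, and the comparison asks what its mutation does to gene expression in the vesicle. The labels give neither the allele of the mutants nor the strain, and no treatment is named for either group.

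An integrin is a pair of an alpha and a beta subunit, and the pair decides which matrix protein is bound. In the developing kidney, nephronectin lies in the basement membrane of the ureteric bud and binds the receptor made of Itga8 and Itgb1 on the neighbouring mesenchyme, which supports production of the growth factor Gdnf. Fras1, Frem1 and Frem2 together form an extracellular complex beneath epithelia, and loss of any of them can cause kidney defects of the Fraser syndrome type.

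The arrays measured probe set signals, which do not give the level of one gene against that of another, so each gene is compared only with itself across arrays. Vesicle markers were high, with summed signals of 157689 to 373164 over 14 genes in the wild type and 209534 to 237644 in the mutants. At 1 of 2 probe sets Lhx1 read 2327 to 17587 in the wild type and 6.88 to 10.5 in the mutants (limma adjusted p = 0.00329). At the other it read 1696 to 18555 and 4108 to 4951 (adjusted p = 0.833). Wild type arrays 3 and 1 correlated least with the rest, at a mean r of 0.849 and 0.859 across probe sets against 0.877 to 0.901 for the other 7 arrays. Summed stroma, macrophage, megakaryocyte, cap mesenchyme, endothelial, erythroid and neural markers were all highest on wild type array 3. The vesicle sum was lowest on that array, at 157689. The signal near the 3 prime end divided by that near the 5 prime end is a measure of RNA length. For Gapdh it was 12.4 to 87.6 in the wild type and 17.8 to 61.4 in the mutants, highest on wild type array 3. For beta-actin it was 14.7 to 21.7 in the wild type and 16.3 to 25.2 in the mutants, highest on mutant array 2. The ratios were thus highest on different arrays. In captured tissue, fewer cells of a type and less RNA per cell cannot be told apart.

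No gene of the group passed the test between genotypes, and the lowest unadjusted p values were those of Fras1, with log2 differences of -1.11 at its brighter probe set and -2.62 at its dimmer one. Nephronectin, Frem2, Itga6, Itgav, Itgb1 and Itgb5 had log2 differences between -0.34 and 0.13 at the probe set with the highest mean, Frem1 had -0.57 and Itga3 had 0.74. Itgb3 had too low a mean over all arrays to be tested, although its brighter probe set read 544 and 278 on mutant arrays 2 and 3. Of the 31 probe sets, 20 were bright enough to be tested (a mean at or above the 40th percentile) and 11 were not. With limma, 0 of the 20 had an adjusted p under 0.05, against 0.0333% of all 27022 probe sets tested (9 in all). Their adjusted p values ran from 0.682 to 0.997. At an unadjusted p under 0.05 there were 2 of the 20, both of them Fras1 and both lower in the mutants, against a background of 6.67% in either direction and 2.87% in that direction. The dimmer of the 2 passed the filter on signal only through its high wild type arrays, so it is no second support for the direction, and with the filter at the 60th percentile it was not tested and 1 remained. Leaving out wild type array 1, 2, 3 or 5 or mutant array 3 or 4 left 1 of the 2, the dimmer Fras1 probe set, and leaving out wild type arrays 1 and 3 together left 0. The mutant and wild type arrays overlapped at all 20, where groups without overlap made up 2.25% of all probe sets tested. The median difference was -0.11 over the 20 probe sets, with 7 above 0 and 13 below, and 0.03 over all probe sets tested. Several of the 20 belong to the same gene. Over the 9 tested genes, each at its probe set with the highest mean, the median was -0.02, with 4 above 0 and 5 below.

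**Figure D1:**
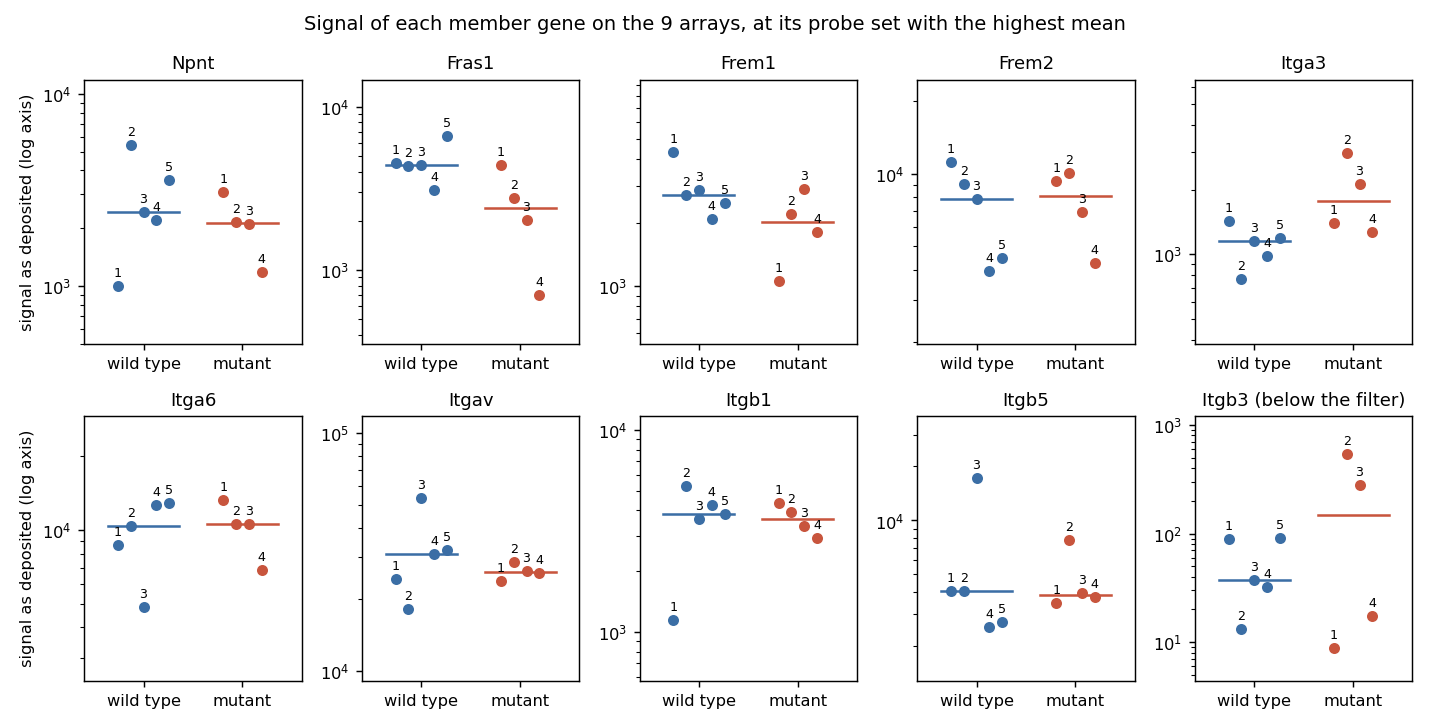
Each panel shows 1 gene at its probe set with the highest mean, with the deposited signal on a log axis whose range differs between panels; points are single arrays labelled with their number and bars are group medians. The groups overlap in every panel, and for Itgb5 wild type array 3 (17271) and mutant array 2 (7798) stand far above the rest of their groups.

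The ligand and the matrix genes were taken first, beginning with Fras1, a large membrane-anchored protein that carries the Fraser complex on epithelial cells. At its brighter probe set Fras1 read 4527, 4303, 4358, 3072 and 6639 on wild type arrays 1 to 5 and 4411, 2751, 2007 and 700 on mutant arrays 1 to 4. Mutant array 1 lay within the wild type range and the other 3 mutants lay below it. The means were 4580 ± 1289 (SD, n = 5) and 2467 ± 1548 (SD, n = 4), with a log2 difference of -1.11 ± 0.49 (SE, 95% interval -2.18 to -0.03, limma adjusted p = 0.746). The exact permutation test over all splits of the arrays gave a two-sided p = 0.0476, unadjusted. Without mutant array 4, the lowest, the difference was -0.58 (adjusted p = 0.803).

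At its dimmer probe set Fras1 read 944, 493, 1639, 19.7 and 67.6 on wild type arrays 1 to 5. The 4 mutant arrays read 32.6, 28.7, 10.5 and 7.21. Wild type arrays 1, 2 and 3 stood far above the mutants, whereas wild type array 4 lay among them and wild type array 5 above them. The log2 difference was -2.62 ± 0.87 (SE, 95% interval -4.53 to -0.71, limma adjusted p = 0.682; exact permutation p = 0.0714). This probe set entered the test through its 3 high wild type arrays, and without wild type arrays 1 and 3 the difference was -1.39 (adjusted p = 0.679). The size also moved with the constant added before the log, to -3.37 with the 10th percentile of all values and -1.62 with the median. The correlation between the 2 Fras1 probe sets over the 9 arrays was r = 0.502, a description only.

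Summed markers of 2 other cell types were also lower in the mutants, and in each list the separation of the groups was lost when 1 gene was left out. Fras1 is known from the ureteric bud epithelium too, and the summed signal of 9 ureteric bud markers was 9216 to 53285 in the wild type and 3202 to 6979 in the mutants (exact permutation p = 0.0159 on the log2 scale). Without Emx2, the only tested bud marker whose groups did not overlap, the sums of the other 8 were 2800 to 49802 and 2335 to 5967, which overlapped. Of the 7 bud markers bright enough to be tested, 6 had differences below 0 and 1 above, and none passed. Hoxb7 and Gata3 were below the filter. The Gata3 groups did not overlap either, at 15.0 to 2141 in the wild type and 4.44 to 10.7 in the mutants. Summed endothelial markers (13 genes) were 14818 to 32256 and 5794 to 7704 (exact permutation p = 0.00794, the smallest these splits can give). All 11 tested endothelial markers had differences below 0 and 1 passed, the tight junction gene Cldn5, at 7988 to 10631 and 609 to 1329. Without Cldn5 the sums of the other 12 were 5226 to 23011 and 5184 to 6552, which overlapped. No marker was at 0 on all arrays. The part of either marker list in the Fras1 difference was not tested.

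Frem1 and Frem2, the other genes of the complex, had differences nearer to 0 than that of Fras1, and the difference between the genes was not tested. Frem1, the secreted member, read 4342, 2693, 2848, 2087 and 2491 on the wild type arrays and 1059, 2198, 2894 and 1815 on the mutant arrays. Mutant array 1 was lowest and mutant array 3 stood above 4 of the 5 wild type arrays. Its log2 difference was -0.57 ± 0.39 (95% interval -1.42 to 0.28, adjusted p = 0.833), and -0.28 without mutant array 1.

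Frem2, membrane-anchored like Fras1, read 11111, 9043, 7822, 3935 and 4455 in the wild type and 9278, 10040, 6926 and 4280 in the mutants. The spread within each group covered the same range, and the log2 difference was 0.12 ± 0.37 (95% interval -0.70 to 0.93, adjusted p = 0.974).

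Npnt had 5 probe sets, of which 4 were tested and all 4 had small differences below 0. At the probe set with the highest mean it read 995, 5400, 2440, 2202 and 3570 on the wild type arrays and 3084, 2158, 2104 and 1179 on the mutants. The lowest and the highest of the 9 values were both wild type. The log2 difference was -0.34 ± 0.47 (95% interval -1.38 to 0.70, adjusted p = 0.931). It was -0.63 without wild type array 1, -0.08 without wild type array 2 and -0.07 without mutant array 4. At the other 3 that were tested the differences were -0.15, -0.16 and -0.12, and the fifth, at 6.37 to 16.6 on all arrays, was not tested. One of the 3 varied little, with 222 to 299 in the wild type and 197 to 275 in the mutants.

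**Figure D2:**
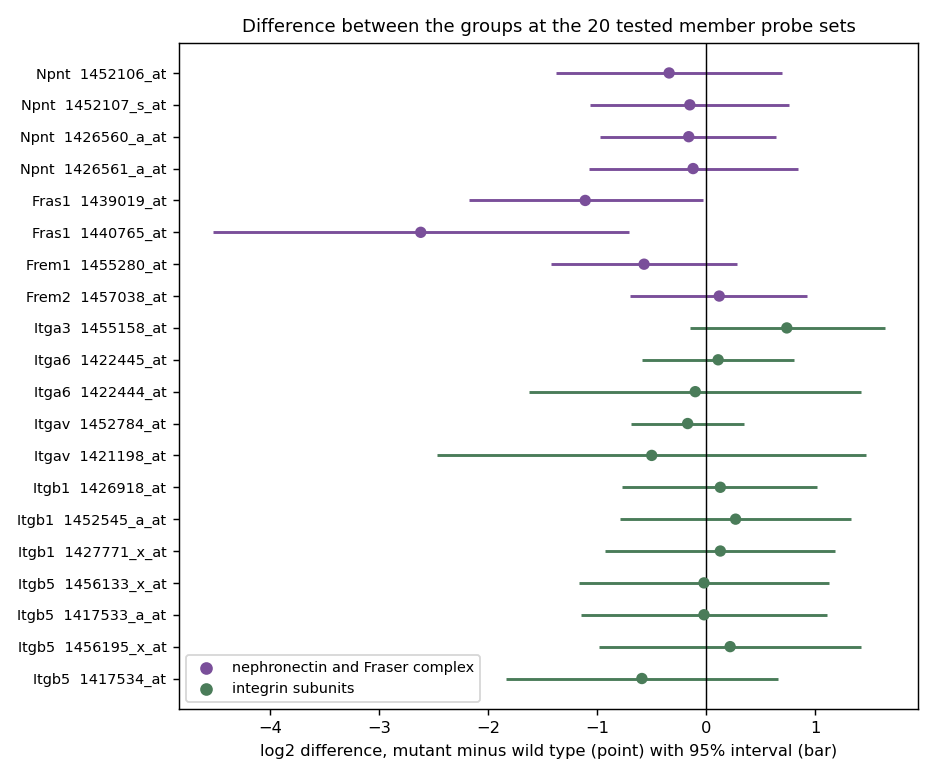
Points are the log2 difference, mutant minus wild type, at each of the 20 tested probe sets, and bars are 95% intervals from limma. The intervals of the 2 Fras1 probe sets lie below 0, at -2.18 to -0.03 and -4.53 to -0.71, and those of the other 18 include 0.

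The alpha subunits followed different array patterns. Itga3, which with Itgb1 forms a laminin receptor known from podocytes and tubule epithelium, read 1432, 765, 1154, 983 and 1186 in the wild type and 1394, 2943, 2131 and 1274 in the mutants. Mutant arrays 2 and 3 stood above all wild type arrays and the other 2 mutants lay within the wild type range. The log2 difference was 0.74 ± 0.41 (95% interval -0.15 to 1.64, adjusted p = 0.795). Its other 2 probe sets were dim, at 22.9 to 161 and 33.4 to 96.5 over the 9 arrays.

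Itga6, the other laminin-binding alpha subunit, pairs with Itgb1 or Itgb4. Its brighter probe set read 8657, 10398, 4832, 12654 and 12845 in the wild type and 13193, 10535, 10566 and 6857 in the mutants. Wild type array 3 was the lowest, and the log2 difference was 0.11 ± 0.32 (95% interval -0.59 to 0.81, adjusted p = 0.973). The dimmer probe set, at 13.5 to 560, had a difference of -0.10 ± 0.70. Itgb4 itself was below the filter, with a mean signal of 116 for wild type arrays and 57.5 for mutant arrays.

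Itgav, the alpha subunit of receptors for vitronectin and fibronectin, had mutant arrays that lay close together. Its brightest probe set read 24421, 18115, 53508, 30976 and 32179 in the wild type and 23758, 28649, 26256 and 25905 in the mutants. The 4 mutants lay inside the range of the wild type, where array 3 was highest. The log2 difference was -0.17 ± 0.24 (95% interval -0.69 to 0.35, adjusted p = 0.932). Of the other 4 probe sets, 1 was tested, with 12.9 to 1219 over the arrays and a difference of -0.50 ± 0.90, and 3 read at most 196 on any array.

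Among the beta subunits, Itgb1 is the common partner of Itga3, Itga6, Itga8 and many other alpha subunits. It read 1145, 5305, 3643, 4264 and 3852 in the wild type and 4371, 3928, 3336 and 2930 in the mutants at its brightest probe set. Wild type array 1 was far below the other 8 arrays, which ran from 2930 to 5305. The other 2 tested probe sets were also lowest on that array, at 398 and 35.6. The log2 differences of the 3 were 0.13 ± 0.41, 0.27 ± 0.48 and 0.13 ± 0.48 (adjusted p = 0.975, 0.949 and 0.980). Without wild type array 1 the first was -0.22 (adjusted p = 0.908), so its sign rested on that array. The remaining 3 Itgb1 probe sets read at most 95.2 and were not tested.

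Itgb5 pairs with Itgav. Its 4 probe sets were all tested. At the brightest it read 4064, 4058, 17271, 2553 and 2701 in the wild type and 3481, 7798, 3938 and 3757 in the mutants. Wild type array 3 was the highest of the 9 at each of the 4 probe sets, with 17271, 15386, 10806 and 4930. The log2 difference was -0.02 ± 0.53 (95% interval -1.17 to 1.13, adjusted p = 0.997). With wild type array 3 left out it was 0.45 (adjusted p = 0.815). The other 3 differences were -0.02, 0.22 and -0.59. The summed stroma markers had the same high array, at 186177 on wild type array 3. The other wild type arrays had 18862 to 52615 and the mutants 15860 to 51125. Wild type array 3 was also highest for the cap mesenchyme, endothelial, macrophage, megakaryocyte, erythroid and neural sums. The part of stroma or of any other cell type in the Itgb5 values was not tested.

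Itgb3, another partner of Itgav and best known from platelets, osteoclasts and endothelium, was not tested. The mean over all arrays lay below the filter at both of its probe sets. The brighter read 89.7, 13.2, 37.3, 32.2 and 90.1 in the wild type and 8.80, 544, 278 and 17.5 in the mutants. Mutant arrays 2 and 3 stood above the other 7 arrays, and the other 2 mutants were near or below the lowest wild type array. The second probe set read 21.2 to 36.2 on all 9 arrays. Megakaryocyte markers, a cell type in which Itgb3 is abundant, summed to 3068 and 3555 on mutant arrays 2 and 3, above the other mutants at 1069 and 1840 and below wild type array 3 at 5576. Their part in the Itgb3 values was not tested.

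**Figure D3:**
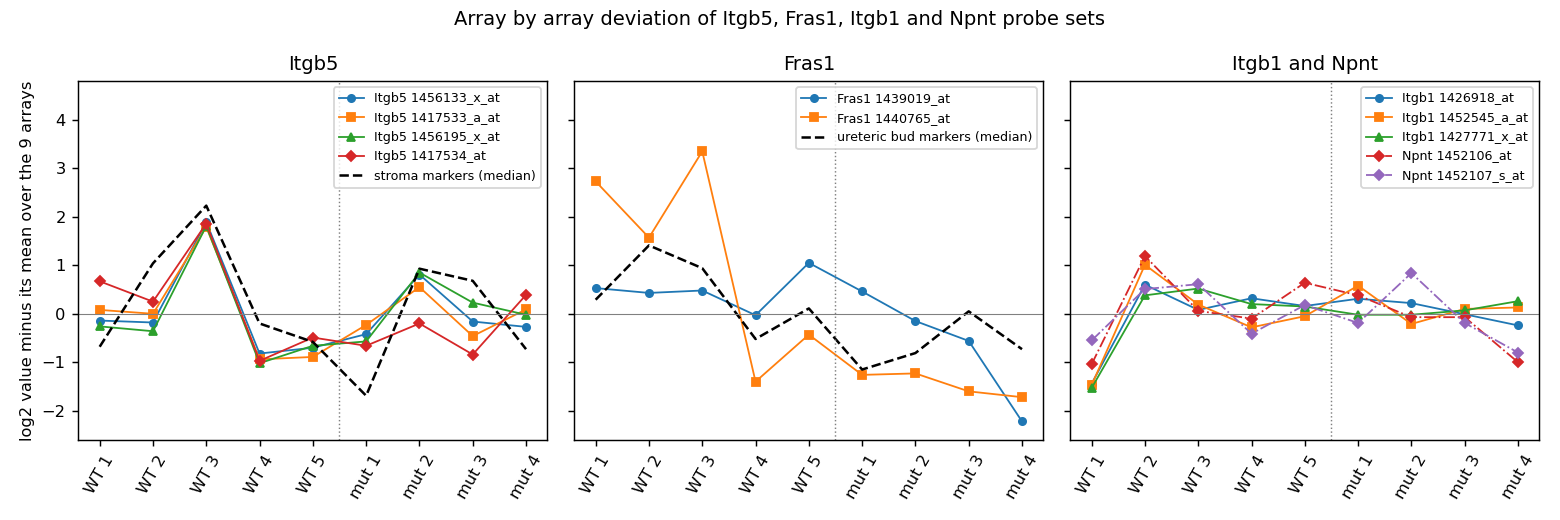
Lines give the log2 value of each probe set minus its mean over the 9 arrays, for Itgb5, Fras1, and Itgb1 with Npnt; dashed lines are the median deviation of the stroma and ureteric bud markers. The 4 Itgb5 probe sets peak together on wild type array 3, at 1.79 to 1.89, and the 3 Itgb1 probe sets dip together on wild type array 1, at -1.53 to -1.44.

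Probe sets of the same gene agreed closely for some members and not for others. Over the 9 arrays the correlations between Itgb5 probe sets ran from 0.705 to 0.972 and those between the 3 tested Itgb1 probe sets from 0.827 to 0.880. The 2 probe sets of Itga6 and the 2 of Itgav correlated at -0.224 and -0.190, and the Npnt pairs ran from 0.0220 to 0.680. Some Itgb1 and Itgb5 probe sets end in _x_at and 1 each of Itga3 and Npnt in _s_at, which marks probes that may also match other transcripts, so their signals may not come from the gene alone. Between different members, at the probe set with the highest mean, the highest of the 36 correlations was that of Itgb1 with Npnt (r = 0.782) and the lowest that of Itga6 with Itgb5 (r = -0.762). Itgb1 and Npnt were both lowest on wild type array 1 and both highest on wild type array 2. These are descriptions over 9 arrays that share 2 genotypes.

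The genes most like Npnt and Fras1 across the arrays were found by the highest Pearson r with the brighter probe set of each, over all tested probe sets of other named genes. For Npnt they were Adi1, an enzyme of methionine salvage (r = 0.939, rho = 0.867), Amigo2, a transmembrane cell adhesion protein (r = 0.934, rho = 0.800), and Syncrip, an RNA-binding protein (r = 0.921, rho = 0.733). Without wild type arrays 2 and 1, the arrays at the ends of the Npnt range, r was 0.938, 0.826 and 0.795. For Fras1 they were Ttc8, a component of the BBSome of cilia (r = 0.980, rho = 0.933), Acp1, a low molecular weight phosphatase (r = 0.975, rho = 0.933), and Nbea, neurobeachin (r = 0.957, rho = 0.883). Without mutant arrays 4 and 3, r was 0.880, 0.881 and 0.912. The highest values among 22772 probe sets for Npnt and 22774 for Fras1 over 9 arrays are large by selection, and none of these 6 genes passed the test between genotypes (adjusted p = 0.802 to 0.958).

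The other genes of integrin adhesion were read from 6 lists holding 84 genes, of which 66 were tested. None passed, 38 had differences above 0 and 28 below, and the median was 0.11. At an unadjusted p under 0.05 there were 7 of the 66, 6 higher and 1 lower, against 6.67% of all probe sets tested. No gene of the 66 had groups without overlap, against 2.25% of all. Of 9 other alpha subunits tested, 3 were above 0 and 6 below. Itga8, the nephronectin receptor subunit, read 6424, 7409, 8238, 11316 and 6882 in the wild type and 4626, 5678, 7128 and 6839 in the mutants, with overlap between the groups and a log2 difference of -0.39 ± 0.26 (adjusted p = 0.826). It was -0.25 without wild type array 4 and -0.26 without mutant array 1. A dimmer Itga8 probe set had 0.33 ± 1.03. Itgal, a leukocyte subunit, had the lowest p among these alpha subunits (1.49 ± 0.66, adjusted p = 0.741). Wild type array 1 read 432 for Itgal, within the mutant range of 190 to 611, and the other wild type arrays 19.0 to 107. The other tested Itgal probe set had 0.11 ± 0.45.

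Only 1 of the 5 other beta subunits was bright enough to test, Itgb7 (-0.39 ± 0.59, adjusted p = 0.940). Among 19 other ligands tested, 13 were above 0 and 6 below. Fn1, fibronectin, read 22119, 17282, 31506, 17284 and 27671 in the wild type and 34574, 43008, 45140 and 23032 in the mutants. The first 3 mutant arrays stood above all wild type arrays and mutant array 4 lay within them, with a log2 difference of 0.66 ± 0.22 (adjusted p = 0.683). A dimmer Fn1 probe set had -0.07 ± 0.96. Egfl6, a close relative of nephronectin, reached 1462 among wild type arrays and 1337 among mutants, with a difference of -0.13 ± 1.06.

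All 4 tested partners of the Fraser complex had differences below 0, with a median of -0.62 and none past the test. Grip1, the scaffold that brings Fras1 and Frem2 to the cell surface, read 5106, 1032, 813, 1072 and 781 in the wild type and 1450, 445, 72.6 and 458 in the mutants. Mutant array 1 lay above 4 of the wild type arrays and the other 3 mutants below all 5. The log2 difference was -1.58 ± 0.75 (95% interval -3.23 to 0.07, adjusted p = 0.758), but its other probe set had 0.21 ± 0.89. Without mutant array 3 the first difference was -0.95. Vwa2, a basement membrane protein that binds the complex, had -0.26 ± 0.66. Frem3 was not analysed here.

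Of 26 adaptors and tetraspanins tested, 19 were above 0 and 7 below, with a median of 0.25. Fermt3, the kindlin of blood cells, had the lowest p (1.67 ± 0.61, adjusted p = 0.703), and its other tested probe set had -0.55 ± 0.56. Summed macrophage markers, another sign of blood cells, were 1584 to 22799 in the wild type and 3686 to 6475 in the mutants. The medians were 2735 and 6251 (exact permutation p = 0.587 on the log2 scale). Of the 10 markers tested, 8 had differences above 0 and 2 below, and none passed. Fermt3 read 832, 921, 246, 967 and 137 in the wild type and 1498, 3832, 894 and 1674 in the mutants. It was thus low on wild type array 3, where the macrophage sum was highest. The part of the macrophage markers in the Fermt3 values was not tested. Cd151, the tetraspanin that binds the receptor of Itga3 and Itgb1, had 0.49 ± 0.26 (adjusted p = 0.792) at the brightest of 6 probe sets, of which 5 were above 0.

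The list of Gdnf and Ret signalling, which includes the Gdnf whose production nephronectin supports, had 3 genes above 0 and 4 below. Gdnf read 1628, 3341, 1614, 3157 and 3167 in the wild type and 2372, 8665, 807 and 3546 in the mutants. The highest and the lowest value were both mutant, and the log2 difference was 0.19 ± 0.58 (95% interval -1.08 to 1.45, adjusted p = 0.973). Spry1, a feedback inhibitor of the pathway, read 2743 to 6210 in the wild type and 5282 to 12151 in the mutants (1.14 ± 0.33, adjusted p = 0.638). Ret, the receptor of the bud, had the lowest value of the list, -2.43 ± 1.26 (adjusted p = 0.786), and is also one of the 9 bud markers.

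**Figure D4:**
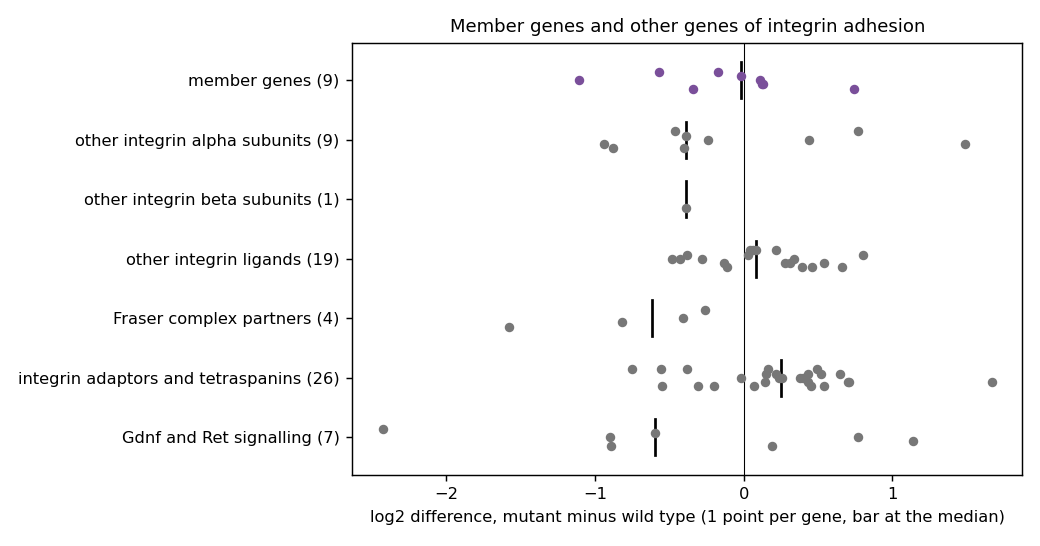
Each point is the log2 difference, mutant minus wild type, of 1 tested gene at its probe set with the highest mean, and black bars are the medians of the member genes and of each list, with the number of genes in brackets. The lists spread on both sides of 0 except the 4 partners of the Fraser complex and the single beta subunit, all below 0.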

How the data were processed

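Renal vesicle RNA was amplified in 2 rounds with biotin label, per the labels' protocols, which favours the 3 prime ends of transcripts. The authors deposited 1 linear intensity per probe set and array, made with GCOS per the submitters' processing notes; the sources used here give neither its algorithm nor its target signal. The mean without the lowest and highest 2% was 1500 on every array, so arrays had been scaled. Array number, 5 and 4, limits precision.

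Intensities were transformed as log2(value + 42.41), the 25th percentile, which understates changes of dim probe sets, and quantile normalised. After 64 control probe sets were left out, 27022 probe sets whose mean reached the 40th percentile entered the test with limma 3.58.1 in R 4.3.3 (eBayes with trend, group only, two-sided, Benjamini-Hochberg adjustment over all 27022, threshold 0.05). The fit was tested on simulated data with noise drawn independently for each probe set and array, so shared array effects were not covered. Adjusted p values, differences with SE and intervals come from this fit; signals are as deposited. Single values were compared by exact permutation over all splits of the arrays.

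A gene stands for its probe set with the highest mean. Named were all members, Lhx1, Itga8, Egfl6, Gdnf, Grip1, Cd151, Vwa2, the gene with the lowest p in each list, and the 3 genes most like Npnt and Fras1; Ret was added after its value was seen. Members, lists and rules were chosen with earlier results of these data known. Marker sums without the tested markers whose groups did not overlap were added after the data were seen. Alternatives covered normalisation, filter, pseudocount, variance model, array weights, a replicate block and left-out arrays.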

Additional observations from a re-analysis of the deposited data

Results flagged for a closer look

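Dixon's criterion was applied to 86 sets of values, each from the arrays of 1 genotype, and 14 had an extreme array. The criterion marks about 1 in 20 sets of independent, normally distributed values, or about 4.3 here. The values were signals without log transformation, and probe sets of 1 gene can vary together. The count of 14 against 4.3 is therefore no test of an excess. The 40 groups of member values held 6 of them. Itgb5 was far above the other wild type arrays on wild type array 3 at 3 probe sets, with 17271 against 2553 to 4064, 15386 against 2243 to 4586 and 10806 against 1559 to 2439. At the first of these it was also high on mutant array 2, with 7798 against 3481 to 3938. Wild type array 1 stood out at the dimmer probe sets of Itga6, with 560 against 97.7 to 198, and of Itgav, with 1219 against 19.6 to 130.

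Wild type array 1 was also far above the other wild type arrays for Grip1 (5106 against 781 to 1072), Vwa2 (2746 against 334 to 935) and Itgal (432 against 19.0 to 107). The dimmer Lhx1 probe set read 17587 on wild type array 4, against 2327 to 5280. Wild type array 3 stood above the others in the summed markers of stroma (186177 against 18862 to 52615), macrophages (22799 against 1584 to 4150) and megakaryocytes (5576 against 824 to 2129). On mutant array 1 the macrophage sum was 3686, below the 6124 to 6475 of the other mutants.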

How the results depend on the processing

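No member probe set passed in limma under any of the 19 alternatives, in which 4.40% to 7.58% of all probe sets had an unadjusted p under 0.05. Over all probe sets, 9 passed, 0 with the replicate block over the 4 shared numbers, 0 without wild type arrays 1 and 3 together, and 3 to 8 with each array left out. Member groups without overlap numbered 0 to 1 with each array left out: Fras1 at its dimmer probe set without wild type array 4, and at its brighter one without mutant array 1, where all probe sets had shares without overlap of 3.49% and 5.0%. The Fras1 differences kept their sign throughout, and the member probe sets at an unadjusted p under 0.05 numbered 1 or 2 except without wild type arrays 1 and 3 together (0). They numbered 1 with the replicate block, without the variance trend and with the filter at the 60th percentile, which dropped the dimmer Fras1 probe set. Of 198 member differences under the alternatives, 180 kept sign and side of the threshold and 18 changed sign, all with a reported value between -0.17 and 0.13. With array weights, Itga6 was -0.02, Itgb1 -0.04, Itgb5 0.18 and Gdnf -0.14. Without wild type arrays 1 and 3, Itga6 was -0.24, Itgb1 -0.29, Itgb5 0.56, Gdnf -0.18 and Vwa2 0.16. With the replicate block, Frem2 was -0.03 and Egfl6 0.30. With each array left out, the ranges were -0.93 to 0.63 for Egfl6, -0.07 to 0.38 for Frem2, -0.35 to 0.74 for Gdnf, -0.13 to 0.29 for Itga6, -0.33 to 0.02 for Itgav, -0.22 to 0.29 for Itgb1, -0.29 to 0.45 for Itgb5, -0.70 to 0.10 for Itgb7 and -0.55 to 0.24 for Vwa2. Replicate numbers shared by the groups showed no sign of pairing (correlations of same-numbered deviations -0.105 to 0.0537), which cannot show that the arrays were unpaired. The cause of these changes was not tested. The call at the dimmer Lhx1 probe set was lost with the replicate block (-6.90, adjusted p = 0.0758) and without wild type arrays 1 and 3 (-6.75, adjusted p = 0.0630), with differences as large as the -6.64 reported. The number of arrays and the wide intervals limit what can be seen: no detection calls were used here, so dim signals have no stated background.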
